A study of Mus musculus with 24 samples.

Results

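The 10 genes listed here belong to the cytosolic heat shock response and were followed across primary mouse muscle cultures: Hspa1a, Hspa1b, Hsph1, Dnajb1, Hspb1, Hspa8, Hsp90aa1, Hsp90ab1, Bag3 and Cryab. Each gene was read from a transcript cluster (the probes of 1 locus, summarized to 1 value) whose only gene symbol was that gene, taking the cluster with the highest mean where there were several. By this rule 9 of the 10 genes were measured, out of 22180 genes tested, and Hsp90ab1 was not analysed here. The list was drawn up from the known roles of the genes and not from their values, although earlier results of these data were known.

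The cells were myogenic cultures from the quadriceps of ICR mice, an outbred stock. The mothers were either fed freely (control) or given 50% of the control food intake from day 12.5 of gestation (undernourished), with free access to food after delivery for all, and litters were equalized to 8 pups. Cultures of both kinds of offspring, grown to near confluence, were kept in standard differentiation medium with 5.5 mM glucose and 2% serum, or overnight in limited medium, in which glucose was 0.5 mM, serum 1%, glutamine 1 mM and carnitine 0.5 mM. This gave 4 groups of 6 arrays. The labels give each array a culture number that recurs in both media, but do not say whether it marks an animal, a litter or a flask, and they give neither sex nor age of the offspring. The p-values therefore measure the spread between these arrays, which may in part be technical.

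Cells meet misfolded protein in the cytosol with a small set of chaperones whose genes are switched on by heat shock factor 1 (HSF1). HSP70 proteins bind exposed hydrophobic stretches and release them in an ATP-driven cycle. J-domain proteins such as DNAJB1 deliver the substrate, HSP110 and BAG proteins eject the spent nucleotide, HSP90 takes over part of the clients, and small heat shock proteins hold unfolded chains without ATP. Some members, such as Hspa8 and Hsp90ab1, are made at all times, whereas Hspa1a and Hspa1b are low in resting cells and strongly inducible. In skeletal muscle, CRYAB and BAG3 guard the Z-disc, where filament proteins are under constant mechanical load.

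Hspa1a and Hspa1b are neighbouring copies on chromosome 17 that encode near-identical proteins, so probes for one can also take up transcripts of the other. Their promoters are shown because the pair carried the response described here. The mouse promoter sequences come from RefSeq (GRCm38.p6), which gave a window of 250 bases before to 50 bases after the transcription start for 6 of the 10 genes. The printed stretch covers the 200 bases before the start of Hspa1a (chr17:34972157-34972356, minus strand) and of Hspa1b (chr17:34959239-34959438, minus strand). The stretch of Hspb1, a small heat shock protein gene, begins 130 bases before its start (chr5:135887789-135887848, plus strand). Capitals mark 2 alternating units of the heat shock element, the sequence that heat shock factors bind.
Hspa1a: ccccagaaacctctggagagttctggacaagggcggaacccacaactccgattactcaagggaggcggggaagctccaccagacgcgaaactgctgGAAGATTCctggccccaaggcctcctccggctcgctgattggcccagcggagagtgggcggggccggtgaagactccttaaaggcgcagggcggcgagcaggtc
Hspa1b: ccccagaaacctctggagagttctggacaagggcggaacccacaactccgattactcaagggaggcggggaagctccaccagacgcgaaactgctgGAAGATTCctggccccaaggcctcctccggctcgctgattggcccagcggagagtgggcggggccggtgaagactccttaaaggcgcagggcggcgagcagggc
Hspb1: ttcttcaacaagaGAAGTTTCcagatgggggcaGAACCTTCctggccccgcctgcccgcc

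The 300-base windows of Hspa1a and Hspa1b were identical at 296 bases (98.7%), and of the 4 differences only T249G lies in the printed stretch (positions counted from 1 at the 5′ end of the window, Hspa1a base first). Both hold their 2-unit match 104 bases before the start. Hspb1 holds a pair of matches, 117 and 97 bases before the start. Hsph1, the HSP110 gene, was the only gene of the 6 with a match of 3 units, which begins 37 bases after the start in 1 of its windows and 16 bases after it in the other. Bag3 holds a 2-unit match 43 bases after its start, and both windows of Dnajb1 hold none. The 3-unit search used GAANNTTCNNGAA and TTCNNGAANNTTC, which are found in 198 of 32851 windows (0.603%). The 2-unit search used GAANNTTC and TTCNNGAA, which read the same on either strand and lie within any 3-unit match. It was added after the data were seen, and 15.1% of all windows hold such a match.

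The limited medium raised the inducible HSP70 pair and left the 7 other measured heat shock genes below the threshold. Over both maternal diets, Hspa1a was 2.33-fold and Hspa1b 2.62-fold higher in limited than in standard medium. These were 2 of the 9 measured genes, against 6.84% of all genes tested (3.56% higher and 3.28% lower). As the copies are near-identical and their probes can cross-react, these 2 calls are not independent. With an unadjusted p under 0.05 there were 3 of 9, the third being Hsp90aa1, against 20.3% of all genes. The median log2 difference of the 9 genes was 0.08, beside 0.01 over all genes. In bulk cultures, a change in the share of expressing cells and a change in RNA per cell cannot be told apart.

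Hspa1a encodes one of the stress-inducible HSP70 proteins. Its log2 signal in control offspring in standard medium had a lowest value of 6.00, a median of 6.26 and a highest value of 8.38. In limited medium the same offspring group ran from 6.57 over a median of 7.09 to 8.24. The high value in standard medium and the low value in limited medium both belong to culture 16, and the groups overlapped because of it. In undernourished offspring in standard medium, Hspa1a lay in a narrow band from 5.79 over 6.12 to 6.40. In limited medium it ran from 6.62 over 7.96 to 9.16, so that every limited array lay above every standard array, which held for 0.469% of all genes. Culture 20 was the lowest of these limited arrays, and cultures 12 and 9 (8.99) were the highest.

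Hspa1b, the neighbouring copy, had its highest and lowest limited arrays in the same cultures as Hspa1a. Its log2 signal in control offspring ran from 6.40 over 6.81 to 8.40 in standard medium and from 7.22 over 7.98 to 9.74 in limited medium. Culture 16 was again the highest standard and the lowest limited array of the control offspring, and culture 24 the highest limited array. In undernourished offspring it ran from 6.86 over 7.12 to 7.36 in standard medium and from 7.33 over 8.67 to 10.03 in limited medium. These groups overlapped by culture 20 alone, whose limited value of 7.33 lay just under the highest standard value of 7.36. With culture 16 left out of the control groups and culture 20 out of the undernourished groups, neither gene overlapped. Both were left out here because they set the overlap, so this outcome was fixed by the choice. With the same cultures left out, all limited arrays lay above all standard arrays for 1.56% (control) and 1.81% (undernourished) of all genes. The cultures were not chosen by the overlap of each of those genes, so the shares are not a like comparison.

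**Figure D1:**
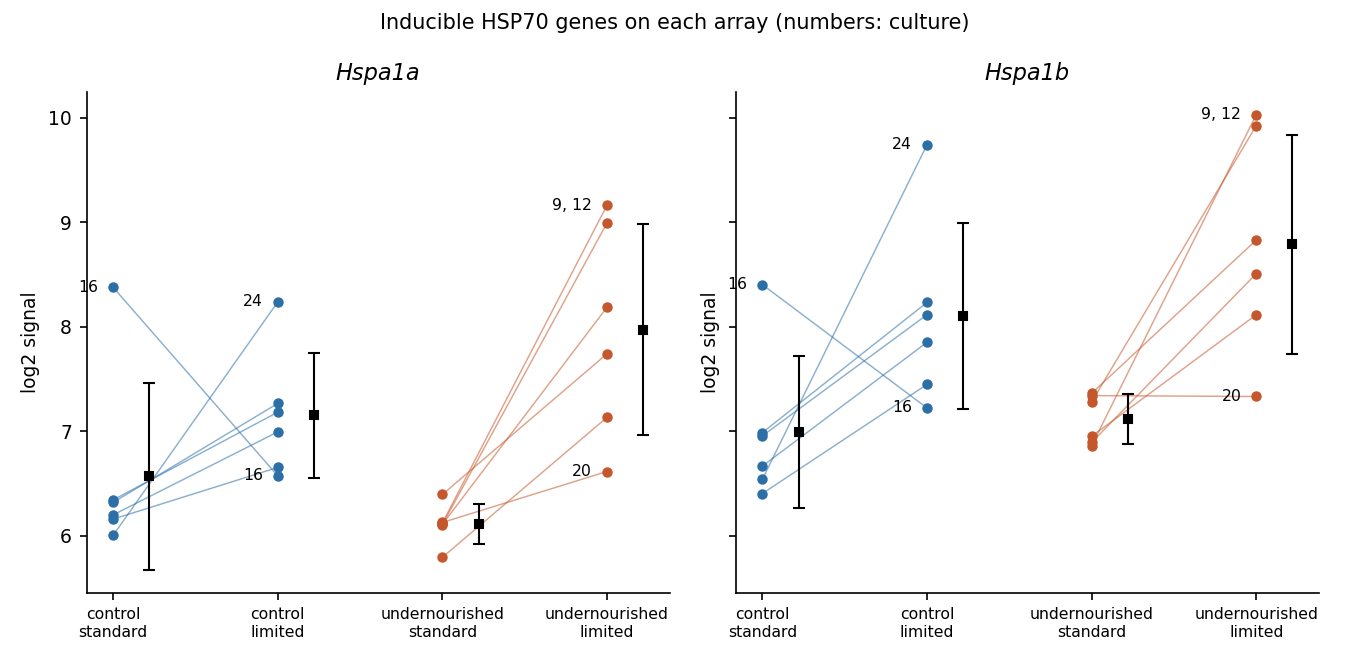
Log2 signal of Hspa1a and Hspa1b (vertical axes) in the 4 groups (horizontal axis), 1 point per array, with lines joining arrays that share a culture number. Hspa1a was higher in limited medium in 11 of 12 culture numbers and Hspa1b in 10 of 12, and culture 16 of the control offspring is lower in limited medium for both.

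Over both diets, the log2 difference (limited minus standard) was 1.22 ± 0.27 (SE) for Hspa1a, with a 95% interval of 0.66 to 1.79 and an adjusted p of 0.00782 in limma. For Hspa1b it was 1.39 ± 0.29 (SE), with an interval of 0.79 to 1.99 and an adjusted p of 0.00452 in limma. By culture number the difference ran from -1.80 to 3.04 for Hspa1a and from -1.18 to 3.20 for Hspa1b. The labels do not say that a number pairs the arrays. The largest differences of undernourished offspring came from cultures 9 and 12 (2.89 and 3.04 for Hspa1a, 2.64 and 3.17 for Hspa1b). The arrays of these numbers did not deviate together from their group means (r = -0.11 and -0.03). Both genes passed the threshold under every alternative run for this comparison, with differences of 1.06 to 1.60 for Hspa1a and 1.18 to 1.79 for Hspa1b. Because probes of the copies can cross-react, their mean was also tested as 1 value. It rose by 1.31 on the log2 scale (adjusted p = 0.00523, limma).

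Within undernourished offspring, Hspa1a rose by 1.86 ± 0.39 (SE) on the log2 scale, or 3.64-fold (adjusted p = 0.0156, limma), and was higher in limited medium in 6 of 6 cultures. Hspa1b rose by 1.67 ± 0.41 (SE), or 3.19-fold (adjusted p = 0.0379, limma), and was higher in 5 of 6 cultures. These were again 2 of the 9 genes, not independent of each other, against 1.46% of all genes. The Hspa1a call was lost without culture 12, 4 or 9 (adjusted p = 0.0827, 0.0838 and 0.0615 in limma), with differences of 1.63, 1.82 and 1.66. The Hspa1b call was lost without undernourished culture 1, 4, 8, 9 or 12 or control culture 5 or 10 (adjusted p from 0.055 to 0.175 in limma), while the difference stayed between 1.38 and 1.78 in these fits. It was also lost, at the same difference of 1.67, with an intensity trend and robust prior (adjusted p = 0.0599, limma) and with the compared groups alone (adjusted p = 0.071, limma).

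Within control offspring, neither copy passed the threshold. Hspa1a differed by 0.58 ± 0.39 (SE), with a 95% interval of -0.22 to 1.38 (adjusted p = 0.551, limma), and Hspa1b by 1.11 ± 0.41 (SE), with an interval of 0.26 to 1.95 (adjusted p = 0.224, limma). Each was higher in limited medium in 5 of 6 cultures. In limma 0 of the 9 genes were called, against 0.343% of all genes, and Hspa1b and Hsp90aa1 had an unadjusted p under 0.05, as 13.1% of all genes did. A single culture weighed on these values. Without culture 16 the differences were 1.06 for Hspa1a and 1.57 for Hspa1b (adjusted p = 0.174 and 0.0927, limma), and without culture 24 they were 0.25 and 0.69.

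The response of the pair was not shown to differ between the offspring groups. The medium effect in undernourished offspring minus that in control offspring was 1.28 ± 0.55 (SE) for Hspa1a, with a 95% interval of 0.15 to 2.41 (unadjusted p = 0.0285 and adjusted p = 1.0, limma). For Hspa1b it was 0.57 ± 0.58 (SE), with an interval of -0.63 to 1.76. In limma 0 of the 9 genes and 0.0% of all genes were called, and 1 of the 9 genes and 2.9% of all genes had an unadjusted p under 0.05. These differences moved either way with single control cultures: without culture 16 they were 0.80 for Hspa1a and 0.11 for Hspa1b, and without culture 24 they were 1.61 and 0.98.

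Cultures 16 and 20, which set the overlaps, also stood apart in fibroblast markers, and culture 20 in glial markers. The mean log2 level of 9 fibroblast and fibro-adipogenic markers was 7.25 and 7.74 in culture 16 (standard and limited medium) and 7.28 and 7.43 in culture 20, while the highest of all other arrays was 6.33. The mean of 7 Schwann and glial markers was 8.00 and 8.02 in culture 20, while culture 16 (6.70 and 6.83) lay close to the highest value elsewhere, 6.75. The mean of 8 smooth muscle and pericyte markers was 7.84 and 7.83 in culture 20 and 7.20 and 7.40 in culture 16, beside a highest value of 7.16 elsewhere. These cultures also had the lowest differences between media in both genes (-1.80 and 0.49 for Hspa1a, -1.18 and -0.01 for Hspa1b), so leaving them out raises the mean difference by construction. Without both, the medium effect over both diets was 1.60 for Hspa1a and 1.79 for Hspa1b.

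The cultures were muscle by their markers in all groups: the mean level of 17 myotube markers ranged from 10.96 to 11.81 over the arrays, and that of 9 satellite cell and myoblast markers from 8.92 to 9.46. Endothelial, leukocyte and adipocyte lists stayed between 4.62 and 5.37, under the median of all genes tested (6.02). With the medium over both diets, 2 of 17 myotube markers, 1 of 9 satellite cell markers and 0 of the other markers were called in limma. In the same comparison 6.84% of all genes were called. The part of the markers in the heat shock results was not tested. Any 2 arrays correlated at 0.954 to 0.990 over all transcript clusters.

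A dim cluster that the annotation assigns to both Hspa1a and Hspa1b stayed out of the tests. Its mean log2 signal over all arrays was 4.83. It was higher in limited medium by 0.67 in undernourished offspring (5 of 6 cultures) and by 0.19 in control offspring (4 of 6 cultures).

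Hspa8 encodes HSC70, the HSP70 of unstressed cells. Its log2 signal lay within 12.31 and 12.64 over all 24 arrays. Group means were 12.41 ± 0.07 and 12.46 ± 0.09 in control offspring (standard and limited medium, SD, n = 6) and 12.45 ± 0.11 and 12.44 ± 0.04 in undernourished offspring. The difference over both diets was 0.02, with a 95% interval of -0.07 to 0.11, so that a change of the size seen for Hspa1a and Hspa1b lies far outside it. This holds for the brightest Hspa8 cluster. Further clusters named only for Hspa8, which were not tested, differed by 0.26 to 0.31 in control offspring and about 0.05 in undernourished offspring.

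Hsph1, the HSP110 nucleotide exchange factor of HSP70, had group means of 9.62 ± 0.17 and 9.62 ± 0.24 in control offspring and 9.69 ± 0.13 and 9.72 ± 0.31 in undernourished offspring (SD, n = 6). The medium difference over both diets was 0.02 (interval -0.16 to 0.20). Dnajb1, the J-domain partner of inducible HSP70, had means of 6.79 ± 0.21 and 6.85 ± 0.13 in control offspring and 6.74 ± 0.16 and 6.95 ± 0.29 in undernourished offspring. It was higher in limited medium in 10 of 12 cultures, among them 6 of 6 of the undernourished. Its difference of 0.14 (interval -0.03 to 0.31) did not pass the threshold (adjusted p = 0.37, limma). Bag3 couples HSP70 to selective autophagy. Its means were 9.87 ± 0.28 and 9.90 ± 0.14 in control offspring and 9.94 ± 0.15 and 10.13 ± 0.11 in undernourished offspring, with a medium difference of 0.11 (interval -0.04 to 0.26; adjusted p = 0.45, limma).

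Hsp90aa1, the inducible HSP90 gene, was the member with the lowest medium difference. Its group means were 8.97 ± 0.11 and 8.75 ± 0.12 in control offspring and 9.04 ± 0.22 and 8.90 ± 0.23 in undernourished offspring (SD, n = 6). The difference over both diets was -0.18 (interval -0.34 to -0.03; unadjusted p = 0.021, adjusted p = 0.151, limma), and it was higher in limited medium in 4 of 12 cultures. Without undernourished culture 9 the difference was -0.25 and passed the threshold (adjusted p = 0.0276, limma).

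Neither small heat shock protein gene passed the threshold. Hspb1, which encodes HSP25 in the mouse, had means of 8.67 ± 0.48 and 8.78 ± 0.27 in control offspring and 8.41 ± 0.49 and 8.46 ± 0.56 in undernourished offspring (SD, n = 6), with a medium difference of 0.08 (interval -0.28 to 0.44). Cryab, the alpha B crystallin of muscle, had means of 11.51 ± 0.31 and 11.54 ± 0.17 in control offspring and 11.54 ± 0.13 and 11.44 ± 0.06 in undernourished offspring, with a difference of -0.03 (interval -0.19 to 0.13).

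**Figure D2:**
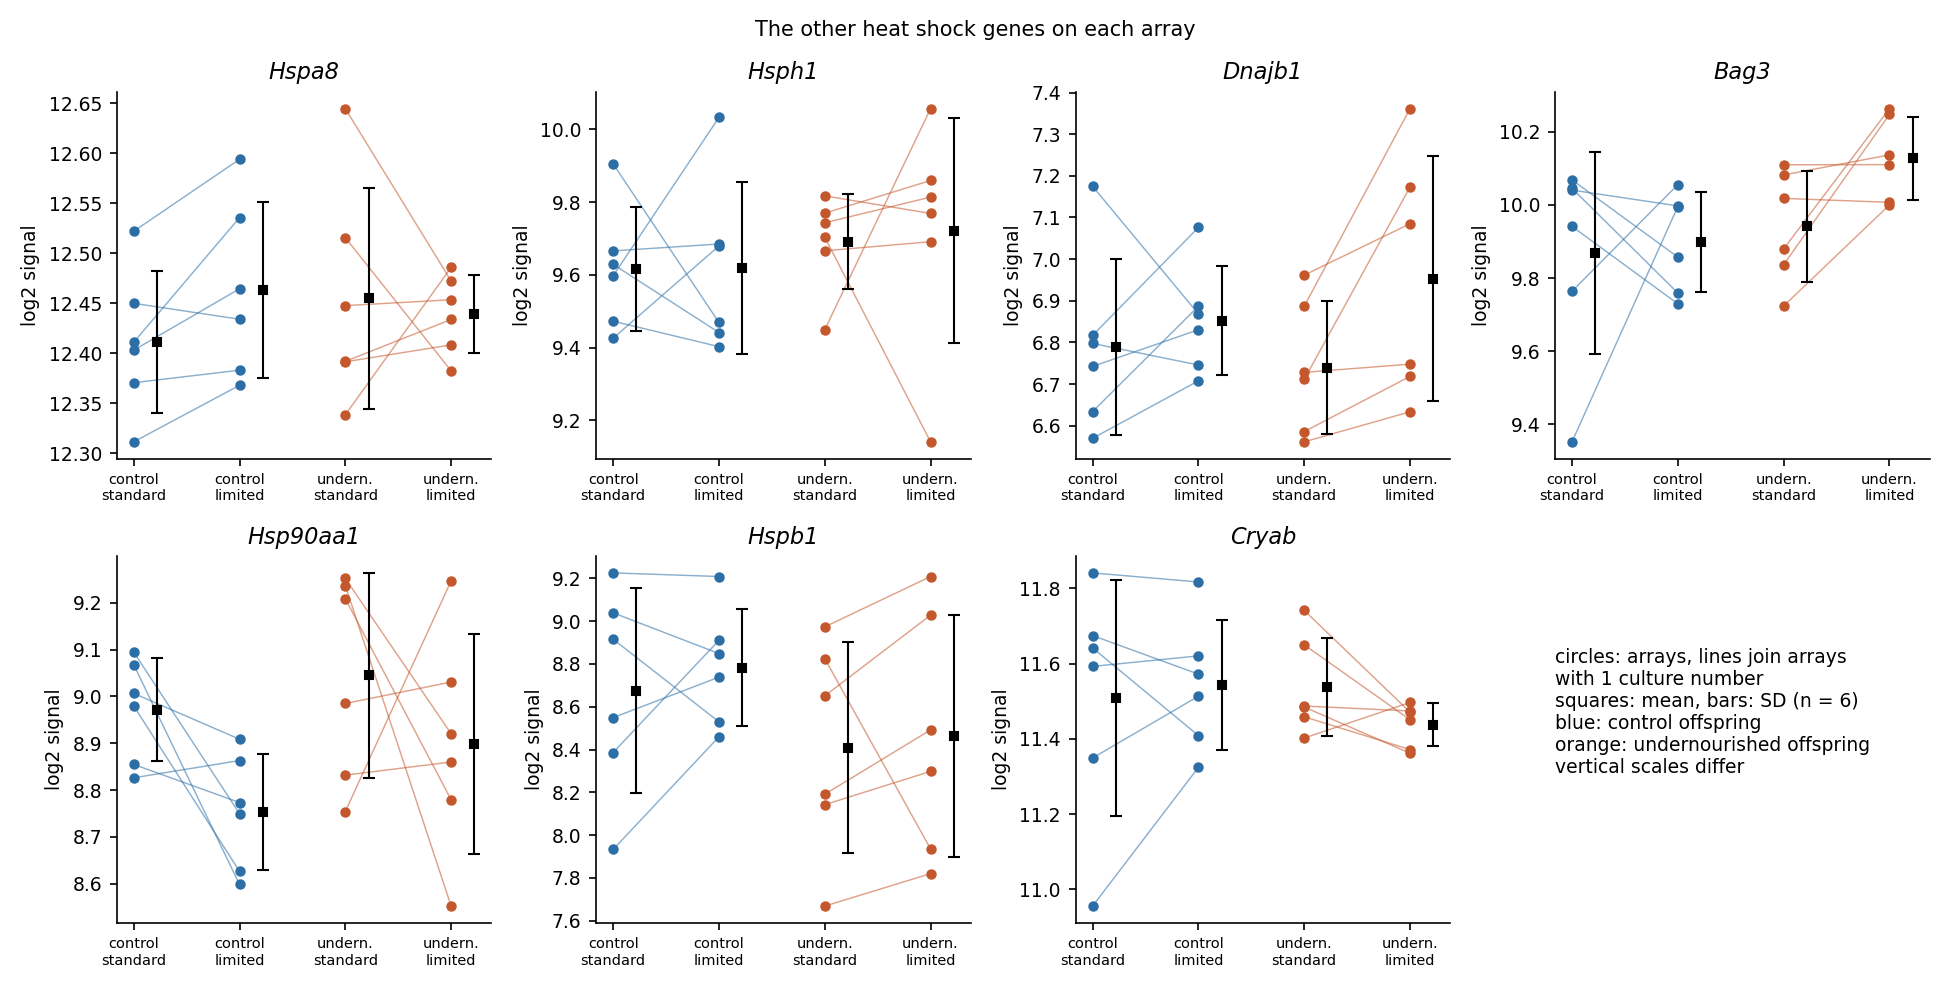
Log2 signal of the 7 other measured heat shock genes (1 panel each, vertical axes with their own range) by group, 1 point per array with lines joining arrays that share a culture number. The standard and limited groups overlap in every panel for both kinds of offspring.

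**Figure D3:**
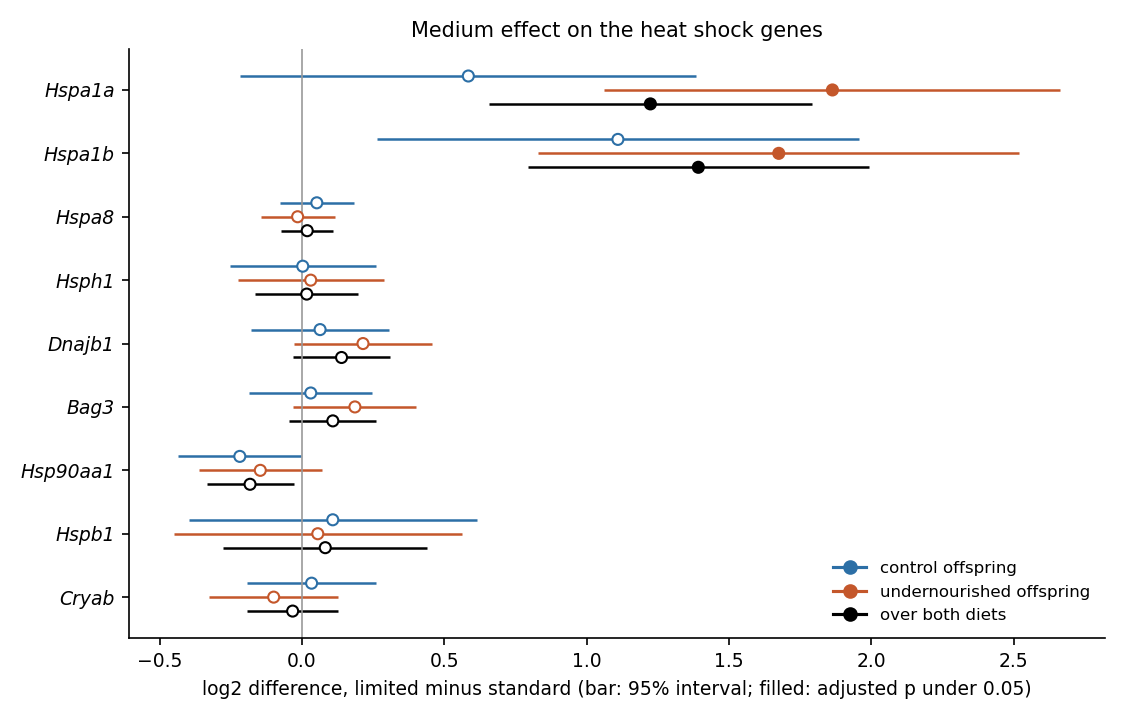
Log2 difference, limited minus standard medium, of the 9 measured genes in control offspring, in undernourished offspring and over both, with 95% intervals from limma; the vertical line marks no difference. Hspa1a and Hspa1b lie to the right at 1.22 and 1.39 over both diets, and the other genes lie between -0.18 and 0.14.

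Maternal diet itself moved none of the heat shock genes past the threshold. In standard medium, undernourished minus control was -0.46 for Hspa1a (95% interval -1.26 to 0.34) and 0.12 for Hspa1b. In limited medium it was 0.82 ± 0.39 (SE) for Hspa1a (interval 0.02 to 1.62), 0.69 for Hspa1b (interval -0.16 to 1.53), 0.23 ± 0.10 (SE) for Bag3 (interval 0.01 to 0.44) and -0.32 for Hspb1. The adjusted p of Hspa1a and of Bag3 was 0.894 in limma. Averaged over both media, Bag3 differed by 0.15 ± 0.07 (SE; adjusted p = 0.999, limma), Hspa1b by 0.40, Hsp90aa1 by 0.11 and Hspb1 by -0.29. In limma 0.0% of all genes were called in each diet comparison. Unadjusted p under 0.05 was reached by 0 of the 9 genes in standard medium (3.14% of all genes), 2 in limited medium (Hspa1a and Bag3; 5.44%) and 1 over both media (Bag3; 3.57%).

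Ordered by mean log2 signal, Hspa1a was lowest in undernourished offspring in standard medium (6.11 ± 0.19), then in control offspring in standard (6.57 ± 0.89) and limited medium (7.15 ± 0.60), and highest in undernourished offspring in limited medium (7.97 ± 1.01; SD, n = 6 each). No neighbours in this order differed past the threshold. Hspa1b ran from control (6.99 ± 0.73) and undernourished offspring (7.12 ± 0.24) in standard medium to control (8.10 ± 0.89) and undernourished offspring (8.79 ± 1.05) in limited medium. The neighbours within each medium did not differ past the threshold, and the middle pair was not a tested contrast.

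Of 84 further chaperone genes, cochaperones and known HSF1 targets on 9 lists, 4 rose and 1 fell with limited medium over both diets, with a median log2 difference of 0.01. This share of 5.95% lies near the 6.84% called over all genes. However, 3 of the 4 rises came from the 6 counterparts of other compartments, so the share does not describe the cytosolic lists alone. Of the heat shock factors and their regulators 0 of 6 passed. Hsf2, a developmental heat shock factor, differed by 0.04 (interval -0.18 to 0.26), and Hsf1 was not analysed here. None passed among 7 other HSP70 and HSP110 genes, 8 BAG proteins and HSP70 partners, 6 other small heat shock proteins, 13 subunits of the CCT chaperonin and prefoldin and 13 other known HSF1 targets. In limma, Hspb7 and Hspb6, small heat shock proteins of muscle, differed by 0.42 and 0.34 without passing. Of the 6 genes on their list, 3 were higher and 3 lower in limited medium, the lowest being Hspb8 at -0.18.

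Among 19 HSP90 cochaperones, 1 rose: Ppp5c, a protein phosphatase docked to HSP90, by 0.29 ± 0.06 (SE; adjusted p = 0.0026, limma). Among 13 other J-domain genes 1 fell: Dnajc13, an endosomal J-domain protein, differed by -0.24 ± 0.07 (SE; adjusted p = 0.0383, limma). That call was lost with array median centring (adjusted p = 0.0648, limma) and when control culture 5, 10 or 11, or 1 of the undernourished cultures 1, 4 and 12, was left out (adjusted p from 0.0711 to 0.126, limma).

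The HSP70 and HSP90 counterparts of other compartments gave 3 rises among 6 genes, where 3.56% of all genes were called higher. Those 3 belong to the endoplasmic reticulum: Hspa5 (BiP) rose by 0.87 ± 0.15 (SE; adjusted p = 0.000856, limma), the HSP110-like Hyou1 by 1.06 ± 0.18 (SE; adjusted p = 0.00106, limma) and Hsp90b1 (GRP94) by 0.76 ± 0.13 (SE; adjusted p = 0.000751, limma). Hspa13, of the same compartment, differed by 0.32, and the mitochondrial Hspa9 (mortalin) and Trap1 by 0.16 and -0.04, without passing.

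**Figure D4:**
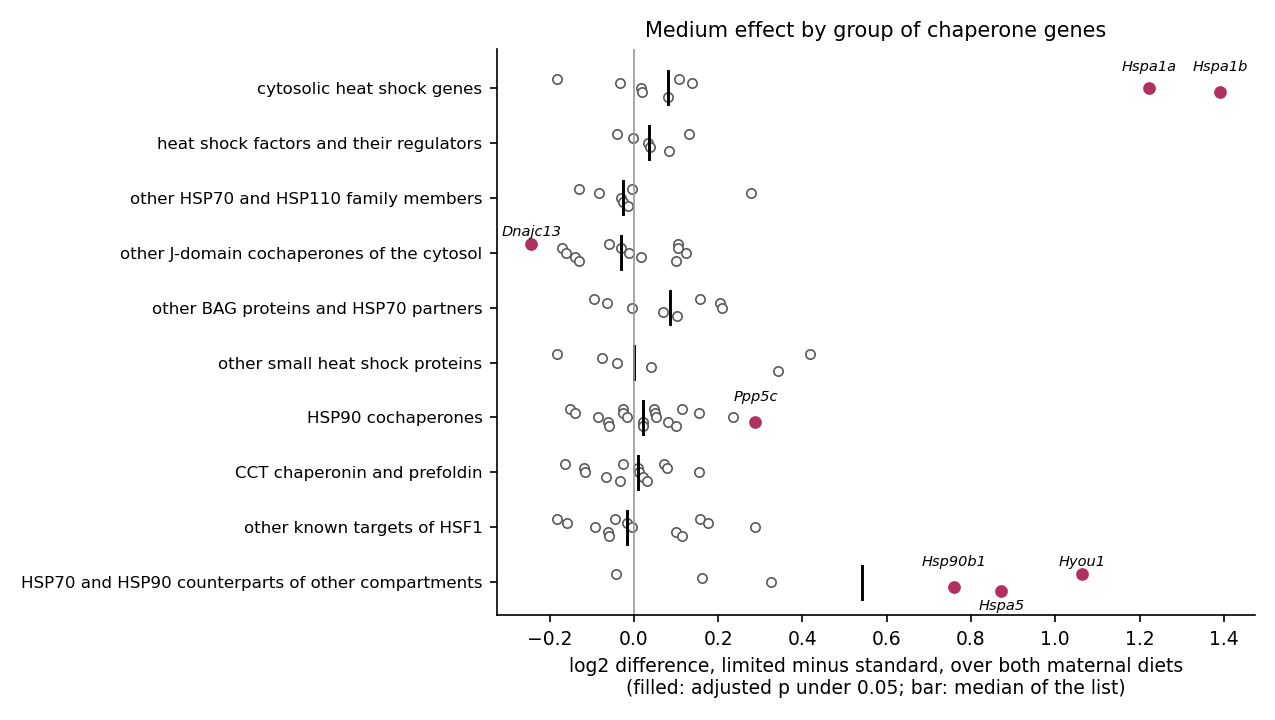
Log2 difference, limited minus standard medium over both diets, of each measured gene on the heat shock list and on 9 related lists (1 row per list, 1 point per gene, filled where the adjusted p is under 0.05). Most lists sit close to 0, with filled points for Hspa1a, Hspa1b, Ppp5c, Dnajc13 and 3 genes of the endoplasmic reticulum.

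Across the 24 arrays, the gene whose log2 signal was most like that of Hspa1b was Hspa1a (Pearson r = 0.94, given as a description). Because probes of the copies can cross-react, these may not be independent readings. The following 4 genes were Cebpb (0.86), a transcription factor, 1110038B12Rik (0.86), Pdia6 (0.85), a disulfide isomerase of the endoplasmic reticulum, and Jpt2 (0.85). These values share the difference between media. With the mean of each group subtracted, which removes that difference, the leading genes were Hspa1a (0.93), the non-coding Snhg1 (0.81), Dnajb1 (0.81), Nol8 (0.79) and Zfand5 (0.78).

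Within groups, Dnajb1 varied with Hspa1b although its group means did not pass the threshold. The within-group correlation with Hspa1b was 0.72 for Hsph1, 0.61 for Hsp90aa1, 0.32 for Hspa8, 0.11 for Hspb1, 0.05 for Bag3 and -0.12 for Cryab. Hspd1, the mitochondrial HSP60 gene, was at 0.75. The 2 arrays farthest from the median of Hspa1b were control culture 16 in standard and control culture 24 in limited medium. Without them the correlation was 0.75 for Dnajb1 and 0.59 for Hsph1. The group means subtracted there still included both arrays, so these are not strictly within-group values. Without cultures 16 and 20, with group means taken anew, the within-group correlation was 0.81 for Dnajb1, 0.50 for Hsph1 and 0.46 for Hsp90aa1. The arrays share quantile normalization and the culture numbers recur in both media, so the points are not independent.

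Of the 24 arrays, 6 were the highest of their group for 4 or more of the 9 genes, or the lowest for 4 or more. Control culture 16 in standard medium was the highest for 4 (Hspa1a, Hspa1b, Hsph1 and Dnajb1), and control culture 24 in limited medium for 5 (Hspa1a, Hspa1b, Hsph1, Dnajb1 and Hspa8). Control culture 15 in limited medium was the lowest for 4 (Hsph1, Hspb1, Hspa8 and Cryab). Among undernourished cultures, culture 4 in standard medium was the highest for 5 (Hspa1b, Hsph1, Dnajb1, Hsp90aa1 and Bag3) and culture 9 in limited medium for 5 (Hsph1, Dnajb1, Hspb1, Hsp90aa1 and Bag3), while culture 20 in limited medium was the lowest for 6 (Hspa1a, Hspa1b, Hsph1, Dnajb1, Hsp90aa1 and Bag3). Other arrays were extreme in both directions. Control culture 11 was the highest for 3 and the lowest for 2 in standard medium, and the highest for 2 and the lowest for 2 in limited medium. Undernourished culture 9 in standard medium was the highest for 2 and the lowest for 2. Since some of the genes vary together within groups, these counts are a description and were not tested.

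**Figure D5:**
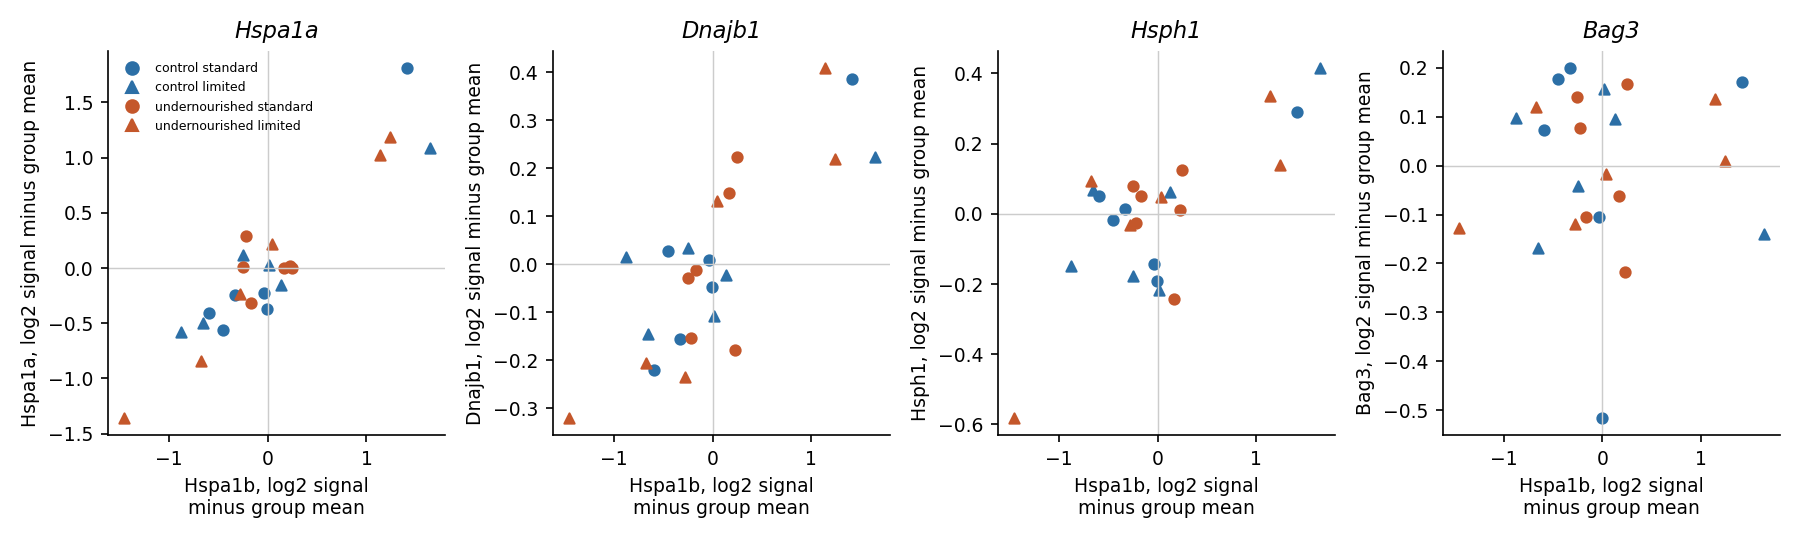
Deviation of each array from its group mean (log2 signal) for Hspa1b (horizontal axes) against other heat shock genes (vertical axes), 1 point per array. The points of Hspa1a, Dnajb1 and Hsph1 follow those of Hspa1b (r = 0.93, 0.81 and 0.72 over 24 arrays), whereas those of Bag3 do not (0.05). Because probes of the copies can cross-react, Hspa1a and Hspa1b may not be independent readings.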

How the data were processed

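RNA of 24 muscle cultures was biotin-labelled (WT PLUS) and measured on 1 array each, per the labels' protocols. The authors' deposited values are log2 signals of 41345 transcript clusters, made with RMA in Affymetrix Expression Console per the submitters' processing notes. The base of the logarithm was read from the values (1.69 to 14.1), and the sources used here name neither tool versions nor the build behind the clusters. RMA's quantile normalization gives all arrays about the same distribution, so a change in total RNA is not seen.

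Clusters were named by the platform's annotation, updated through RefSeq (GRCm38.p6): 23521 had 1 symbol, 1814 several and 16010 none here. For the 1082 genes with more than 1 such cluster the one with the highest mean was used. Genes were tested with limma 3.58.1 in R 4.3.3 (lmFit and eBayes, 2-sided) on all 24 arrays in 4 groups, and p-values were adjusted by Benjamini-Hochberg over 22180 genes with a threshold of 0.05. For maternal diet over both media, the arrays of a culture number were averaged first (6 against 6), so that arrays sharing a number were not counted as independent. No dim genes were filtered out, and all 9 measured members lay above the median level. The number of arrays limits the precision. The fit was tested on simulated data in which all arrays were independent. That test does not cover any likeness between arrays that share a culture number.

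The members and lists were chosen with earlier results of these data known. All members were named in every comparison. Of each related list, up to 4 called genes were named, and Hsf2 and the counterparts of other compartments always. Hspb6, Hspb7, Hspd1 and the cultures singled out were named after their values were seen. For likeness, the 5 genes with the highest r were named, leaving out genes below the median level.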

Additional observations from a re-analysis of the deposited data

Results flagged for a closer look

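In control offspring in standard medium, Hspa1a was 8.38 in culture 16, while the other 5 arrays lay between 6.00 and 6.34. The gap was 0.857 of the range of the group, above Dixon's critical value of 0.625 for 6 samples. Hspa1b was 8.40 in the same array, beside 6.40 to 6.99 in the other 5, a gap of 0.708 of the range. Of 36 groups of member values examined, these were the 2 with such a sample, and chance gives about 1 in 20. The copies are near-identical, so the values are not independent of each other.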

How the results depend on the processing

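Of 23 alternatives, 12 left out a culture. Over both diets, the count of called members was 2 in each alternative except the mean of Hspa1a and Hspa1b as a single value, where it was 1, and without undernourished culture 9, where Hsp90aa1 made it 3; with a culture left out it was thus 2 to 3. In undernourished offspring it was 1 with an intensity trend and robust prior and 1 with the compared groups alone (Hspa1a, Hspa1b being lost), 1 with the mean of the pair, and 0 to 2 with a culture left out. In control offspring it was 1 (Hspa1b, adjusted p = 0.049, limma) without cultures 16 and 20, an exclusion planned on their marker levels that also removes the lowest differences, and 0 with any single culture left out, 16 included. In the difference between offspring groups and in the diet comparisons it was 0 throughout. Same-numbered arrays deviated from their group means with correlations of -0.11 to 0.66, above 0.1 in 10 of 12, and 10 of 12 correlated best with their own number, a hint from the data that the numbers pair the arrays. As cultures 9 and 12 (-0.11 and -0.03) lay below 0.1 and the labels do not settle it, pairing was not assumed in the comparisons of media. With the replicate block, 2 members were called over both diets, 2 in undernourished and 0 in control offspring. The adjusted p over both diets was then 0.0059 for Hspa1a and 0.0043 for Hspa1b in limma, and over all genes 2597 were called in place of 1517. The block changed no member's call, and among related genes it added Ppp5c in control offspring (adjusted p = 0.0363, limma). Of 2546 uncalled differences of members and related genes recomputed, 115 had the other sign. The cause of these changes was not tested. Low signal limits the shared cluster of the pair.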

Other observations

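Other clusters of the same genes, which stayed out of the tests, gave values of their own. These were looked at after the values were seen. The 3 further clusters named only for Hspa8 were higher in limited medium by 0.26 to 0.31 in control offspring, in 5 of 6 cultures each, and by about 0.05 in undernourished offspring. The clusters at 0.31 and 0.30 had nearly equal means (both 9.99) and nearly equal SD in every group, so they may not be separate readings. Their SD was 0.86 in undernourished offspring in standard medium. The brightest Hspa8 cluster, used above, differed by 0.05 and -0.02. A cluster shared by Hspa8 and the small nucleolar RNA gene Snord14e differed by 0.20 in control and 0.38 in undernourished offspring. The second Cryab cluster differed by 0.16 and -0.08, a cluster shared by Hspb2 and Cryab by 0.11 and 0.08, and the second, dim Hspb1 cluster by 0.03 and -0.02. No test was run on any of these clusters.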
